A study of Macaca fascicularis with 5 samples.

Results

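The 3 libraries from untreated cynomolgus monkeys (Macaca fascicularis) are described here, out of 5 libraries sequenced from the dorsal lateral geniculate nucleus (dLGN). They were taken by their deposited treatment label and are called Control-307, Control-317 and Control-331, with 1 library per animal. The labels give an age of 3 months and the treatment as untreated, and name no genotype, strain or visual manipulation for these animals. In the paper, the deprived monkeys were sutured at 1 month of age and killed 3 months later. By title Control-317 is from the left dLGN and Control-307 and Control-331 are from the right, while the description of each control sample states that left and right tissue was mixed. The other 2 libraries, from monkeys deprived of vision in the left eye, enter no level, spread or variant share below, so that no comparison of treatments is made. Their counts were used only to check the labels against the group means printed by the study. Since each library is 1 animal and there is no second group, levels and spreads are given as descriptions without tests.

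The dLGN is the thalamic nucleus that receives the axons of retinal ganglion cells and passes their signals to the primary visual cortex. In primates it is layered, with magnocellular, parvocellular and koniocellular relay neurons, which are glutamatergic and use the vesicular transporter SLC17A6 (VGLUT2). Local GABAergic interneurons, astrocytes, microglia and large numbers of myelinating oligodendrocytes surround them. The first months of life belong to the period in which vision shapes this pathway, and myelination is under way.

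The tissue markers differed between the 3 libraries. FPKM is the level as the authors scaled it for transcript length and library size, summed here over all transcripts of a gene symbol. Wherever 3 values stand in a row, the first is of Control-307, the next of Control-317 and the last of Control-331. SLC17A6 stood at 2.29, 95.3 and 9.88 FPKM. TCF7L2, a transcription factor of thalamic neurons, had 2.82, 75.7 and 9.22 FPKM. PENK, the precursor of enkephalins made by neurons of the striatum, had 206, 5.47 and 236 FPKM. DRD1, the D1 dopamine receptor, had 65.3, 6.29 and 57.4 FPKM. Control-317 thus had these thalamic transcripts at high levels. Control-307 and Control-331 had low levels of them and high levels of PENK and DRD1, transcripts of striatal projection neurons. Of 16 relay neuron genes with a mean of at least 1 FPKM, Control-317 was highest in 14, beside 43.5% of all genes at that level. It was lowest in the other members, PRKCD and TNNT1. The name dLGN is therefore kept below only as the label of these libraries. In bulk tissue, fewer cells of a type and less RNA per cell cannot be told apart.

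Control-317 stood apart across the whole transcriptome as well. Over 12094 genes with a mean of at least 1 FPKM, Pearson's r of the log2 levels was 0.951 for the pair Control-307 and Control-331, but 0.777 and 0.808 for the pairs that Control-317 formed with each of them. The points are genes of the same tissue samples, which are not independent replicates. The deposited label of Control-317 is also in doubt for another reason. The group means printed in the supplementary table of the study were matched by a division of the 5 libraries that puts Control-317 with a library labelled deprived, and the other deprived library with Control-307 and Control-331, for all of the transcripts that could be compared, and by the deposited labels for only a few of them. The values of Control-317 may be those of a deprived animal, or the printed means may rest on a grouping that departs from correct labels. The match cannot tell these apart. The labels were followed, and the main spreads and agreements of variants are also given without Control-317.

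The overall shape of expression was nearly the same in the 3 libraries. The libraries held 9424975, 12966019 and 10084102 estimated counts. Of 20576 gene symbols, 11815, 11808 and 11997 reached 1 FPKM and 10954 did so in all 3 libraries. At 10 FPKM the numbers were 4746, 4851 and 4897, and at 100 FPKM they were 299, 295 and 314. Only 5, 6 and 6 genes reached 1000 FPKM, 3 of them in every library. The median expressed gene lay at 7.33, 7.42 and 7.69 FPKM. In all 3 libraries 3260 symbols were listed at 0.

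Expression was spread over many genes rather than held by a few. The highest gene made up 0.986%, 1.03% and 1.09% of the summed FPKM, and the 100 highest genes 18.9%, 18.7% and 19.6%. It took 910, 970 and 891 genes to reach 50% of the summed FPKM, and 6097, 6135 and 6163 genes to reach 90%. The identity of the top genes differed more than the shape of the curve. Of the 100 highest genes of each library, 55 were common to all 3, 89 were common to Control-307 and Control-331, and 57 and 61 were common to Control-317 and these libraries. Of the 1000 highest, 671 were common to all 3 and 919 to Control-307 and Control-331.

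**Figure D1:**
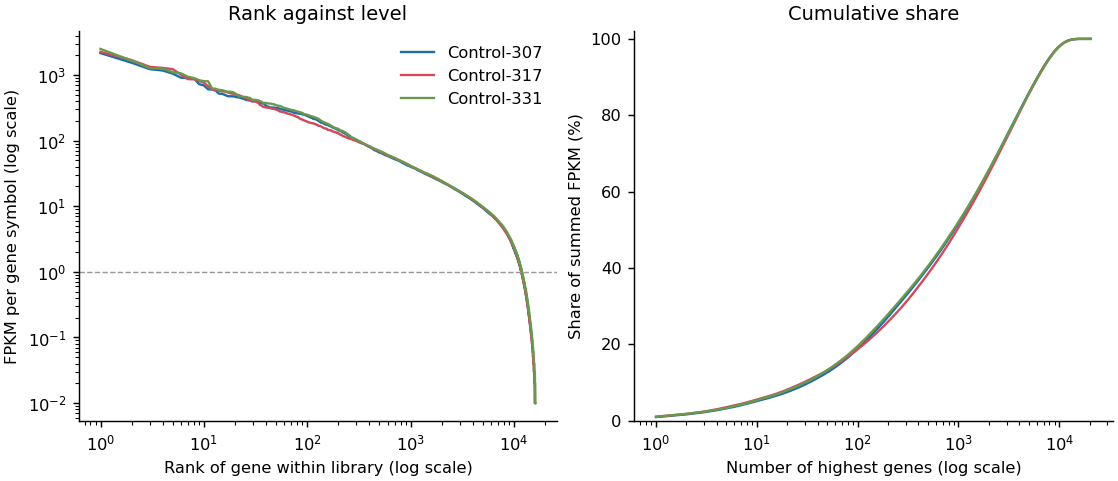
Level of each gene in FPKM against its rank within the library (left, both axes logarithmic, dashed line at 1 FPKM) and the cumulative share of summed FPKM in percent against the number of highest genes (right, logarithmic x axis), with 1 line for each of the 3 untreated libraries. The lines nearly coincide, with 910, 970 and 891 genes making up 50% of the summed FPKM.

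Among the most abundant transcripts was that of EEF1A1, the translation elongation factor that brings aminoacyl-tRNA to the ribosome. EEF1A1 had 1539, 1013 and 1661 FPKM. PPIA, a cytosolic peptidylprolyl isomerase, had 1170, 1228 and 1251 FPKM. CST3, the secreted protease inhibitor cystatin C, had 897, 1283 and 1061 FPKM. The ranges of these 3 genes overlapped.

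The genes taken as the 25 with the highest mean log2 level fell into a few functional groups. Translation was represented by EEF1A1 and by 6 ribosomal protein genes, among them RPL41, RPSA, RPS3A, RPS2 and RPS20. Cytoskeletal genes were TMSB4X (thymosin beta 4, which binds actin monomers; 911, 504 and 1104 FPKM), TUBA1A (alpha tubulin; 476, 866 and 568 FPKM) and ACTB (beta actin; 517, 579 and 617 FPKM). Calcium signalling was represented by the calmodulin genes CALM2 and CALM3 and by PCP4, a small protein that binds calmodulin. CALM2 had 1228, 528 and 1274 FPKM, whereas CALM3 had 456, 678 and 464 FPKM, so that the library with the lowest CALM2 had the highest CALM3. Energy metabolism was represented by GAPDH, a glycolytic enzyme with 694, 1689 and 803 FPKM, and by CKB, the brain creatine kinase with 580, 557 and 592 FPKM.

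The same 25 genes included the chaperones HSPA8 and HSP90AA1, the iron store FTH1 (1049, 492 and 941 FPKM), and UCHL1, a neuronal deubiquitinating enzyme (302, 814 and 341 FPKM). Glial genes among them were NDRG2, an astrocyte protein, and APOE, the main lipid carrier of the brain, with 361, 543 and 373 FPKM. One uncharacterized locus, LOC107128653, had 275, 763 and 448 FPKM. The highest and lowest libraries differed by less than 2-fold in 14 of the 25 genes and by more than 4-fold in 0. Control-307 and Control-331 were within 2-fold of each other in all 25. Among the 100 highest genes, 30 had symbols that begin with RPL or RPS and 10 were loci without a symbol.

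**Figure D2:**
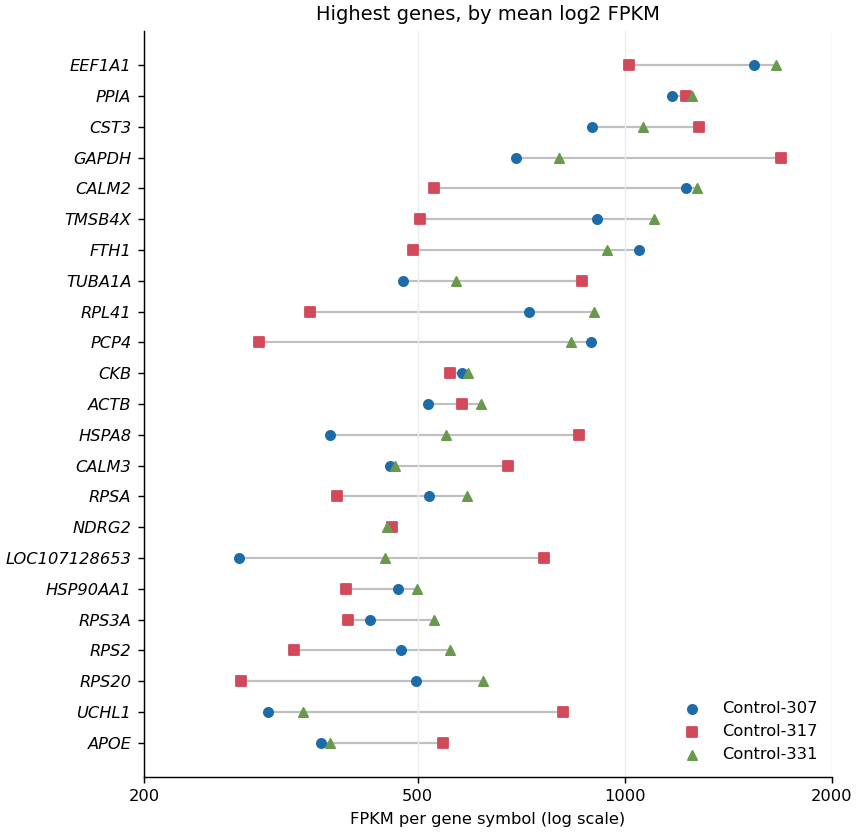
FPKM (logarithmic x axis) of 23 of the 25 genes with the highest mean log2 FPKM in the 3 untreated libraries, 1 point for each library, joined by a grey line from the lowest to the highest value. Control-317 is the lowest library for 12 of the genes shown and the highest for 9.

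The spread between libraries was measured for each gene as the range, the ratio of the highest to the lowest library after adding 0.1 FPKM. The median range over the 12094 genes was 1.59-fold (0.67 on the log2 scale). Between Control-307 and Control-331 alone it was 1.15-fold (0.20 on the log2 scale). A range over 2-fold was found for 3754 genes (31.0% of those described), and one over 4-fold for 1073 (8.87%). Control-317 was the library farther from the middle one in 84.1% of the latter, with a higher value in 391 (3.23%) and a lower value in 511 (4.23%). Between Control-307 and Control-331 only 129 genes (1.07%) differed over 4-fold.

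The biological coefficient of variation, an estimate of relative spread beyond counting error from edgeR, gave the same order. It was 39.7% over the 3 libraries, 18.8% for Control-307 and Control-331, 48.2% for Control-307 and Control-317 and 44.6% for Control-317 and Control-331. Counting error was small beside these ranges. Genes with a mean of 1 to 10 FPKM had a median of 202 counts, for which counting alone gives a standard deviation of 0.10 on the log2 scale, and their median range was 0.73. For 10 to 100 FPKM the median range was 0.60, and for at least 100 FPKM it was 0.81. Without Control-317 these ranges were 0.24, 0.15 and 0.17. Among the 296 genes of at least 100 FPKM, 36 had a range over 4-fold and 0 differed over 4-fold between Control-307 and Control-331. Loci without a symbol varied more, with a range over 4-fold in 16.6% of 765 against 8.35% of 11329 named genes.

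**Figure D3:**
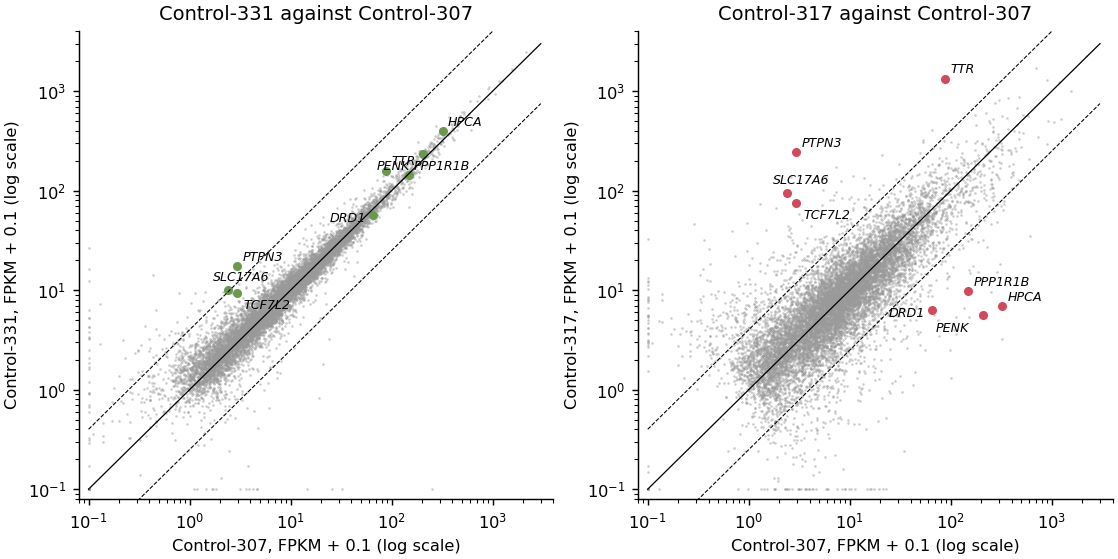
FPKM plus 0.1 of each gene with a mean of at least 1 FPKM (grey points, both axes logarithmic) in Control-331 (left) and Control-317 (right) against Control-307, with the line of equality and dashed lines at 4-fold, and coloured points for named genes. Points lie close to the line for Control-331 (129 genes over 4-fold) and are scattered for Control-317 (917 genes over 4-fold).

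Genes with at least 20 FPKM and the largest ranges were led, among the named ones, by these. HPCA, the calcium sensor hippocalcin, had 320, 6.84 and 394 FPKM (a range of 56.9-fold). ANO3, an anoctamin membrane protein, had 101, 1.22 and 83.3 FPKM. PENK also belonged to this group. In the other direction PTPN3, a tyrosine phosphatase, had 2.86, 243 and 17.2 FPKM. CPNE9, a copine, had 1.18, 73.6 and 6.18 FPKM. PITPNM1, a phosphatidylinositol transfer protein, had 2.50, 138 and 6.37 FPKM. PTPN3, CPNE9 and PITPNM1 passed the mean of 20 FPKM only through Control-317. Among genes with at least 100 FPKM the largest ranges included PDE10A, a striatal phosphodiesterase, with 286, 15.2 and 265 FPKM. ARPP19, a regulator of protein phosphatase 2A, had 606, 34.9 and 412 FPKM there.

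The remaining genes of this kind were loci or short transcripts whose values need caution. LOC102128774, described as a 60S ribosomal protein L32, had 321, 3.14 and 368 FPKM, and the named gene RPL32 had 320, 257 and 310 FPKM, lowest in Control-317 as well. Whether reads were divided between this locus and RPL32 was not tested. LOC102116649, uncharacterized, had 34.4, 0.14 and 42.3 FPKM. LOC107128652, described as a proline-rich protein, had 250 FPKM in Control-307, 9.58 in Control-317 and was listed at 0 in Control-331. TIMM8B, a mitochondrial import protein, had 15.8 and 45.5 FPKM in Control-307 and Control-331 and was listed at 0 in Control-317.

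At the other end were genes whose levels hardly differed. NDRG2 had 456, 459 and 450.5 FPKM, a range of 1.02-fold, and SLC25A4, the ADP/ATP carrier of mitochondria, had 106, 107 and 106 FPKM. ACAT2, an enzyme of acetyl-CoA metabolism, had 25.6, 25.8 and 25.7 FPKM. GNAZ, a G protein alpha subunit, TLN2, a talin that links integrins to actin, MSN, which anchors actin to the membrane, and GOLPH3, PACS2, TMEM33 and CCDC142 had ranges of 1.02 to 1.03-fold.

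Values of exactly 0 were not safe evidence of absence. RPL8, a ribosomal protein that every cell needs, had 32.04 and 14.3 FPKM in Control-307 and Control-317 but was listed at 0 in Control-331. MAX, the partner of MYC, and PPP1CB, a catalytic subunit of protein phosphatase 1, were above 10 FPKM in Control-307 and Control-331 and listed at 0 in Control-317. PYURF had 25.4 and 11.5 FPKM in Control-307 and Control-317 and was listed at 0 in Control-331, where PIGY, listed at 0 in both others, had 26.7 FPKM. In human, PIGY and PYURF are encoded by 1 shared transcript. In all, 6 genes were listed at 0 in Control-317 and at 10 FPKM or more in both others, 2 were so in Control-331 and 0 in Control-307. CHGA, a granin of secretory vesicles, had 32.3 FPKM in Control-317 and was listed at 0 in both others, as were CARTPT, a neuropeptide precursor (12.2 FPKM), and ADSS, an enzyme of AMP synthesis (11.1 FPKM).

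Over all 3 libraries myelin genes had the smallest median range of the cell type lists, 1.42-fold. Astrocytes (1.47-fold) and endothelial and mural cells (1.48-fold) were close. Without Control-317 the myelin range was 1.13-fold, and oligodendrocyte precursors (1.118-fold) and astrocytes (1.125-fold) were lower. Mature oligodendrocytes wrap axons with a membrane rich in myelin basic protein. The 20 listed genes summed to 4383, 3881 and 4557 FPKM. Of 19 members with at least 1 FPKM, 1 had a range over 4-fold, beside 8.87% of all genes described. CNP, a myelin enzyme, had 370, 416 and 378 FPKM. MAG, an adhesion molecule of myelin, had 116, 163 and 131 FPKM. MOG had 140, 152 and 124 FPKM. MBP, myelin basic protein, differed more, with 401, 106 and 327 FPKM. CRYAB, a small heat shock protein, had 214, 101 and 182 FPKM. The member over 4-fold was TSPAN2, a tetraspanin, with 2.22, 12.7 and 5.03 FPKM. TF, the transferrin gene, was listed at 0 in all 3 libraries.

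Oligodendrocyte precursor genes summed to 270, 262 and 273 FPKM. OLIG2, a transcription factor of the lineage, had 38.4, 49.8 and 35.2 FPKM. SOX10 had 25.3, 37.5 and 29.5 FPKM. PDGFRA, the growth factor receptor that marks precursors, had 20.1, 24.3 and 21.1 FPKM. PTPRZ1, a receptor phosphatase, led the list with 50.9, 44.6 and 56.5 FPKM. BCAS1, a gene of newly forming oligodendrocytes, had 40.7, 8.22 and 33.6 FPKM, and it and VCAN (versican) were the 2 of 13 members over 4-fold. The share over 4-fold of all genes described was 8.87%. VCAN, with 0.87, 2.39 and 0.50 FPKM, passed the mean of 1 FPKM only through Control-317. OLIG1 was listed at 0 in all 3 libraries.

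Astrocyte genes were of high level in every library, with a summed level of 3334, 4200 and 3560 FPKM over 20 members. CST3 and NDRG2 led, followed by ALDOC, a glycolytic aldolase with 225, 606 and 252 FPKM, and CLU, the secreted chaperone clusterin with 246, 477 and 247 FPKM. AQP4, the water channel of astrocyte endfeet, had 67.4, 60.2 and 82.6 FPKM, and the glutamate transporters SLC1A3 and SLC1A2 had 253, 117 and 206 FPKM and 53.5, 93.9 and 50.7 FPKM. GFAP, the intermediate filament used as an astrocyte marker, was low, at 2.07, 2.48 and 3.44 FPKM. SPARCL1, a matrix protein secreted by astrocytes, was the 1 member of 20 over 4-fold, with 208, 31.7 and 197 FPKM. The share over 4-fold of all genes described was 8.87%.

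Microglia genes were at moderate level and summed to 254, 199 and 273 FPKM. P2RY12, the purinergic receptor of resting microglia, had 34.2, 14.6 and 30.1 FPKM. CSF1R, the receptor on which microglia depend, had 23.4, 26.5 and 26.5 FPKM. CX3CR1, the fractalkine receptor, had 24.4, 24.2 and 21.1 FPKM. CD74, a chaperone of antigen presentation, had 14.4, 22.7 and 28.0 FPKM. The complement genes C1QA, C1QB and C1QC lay between 8.93 and 28.2 FPKM. Of 20 members 1, the receptor GPR34, had a range over 4-fold (9.18, 2.14 and 8.18 FPKM), beside 8.87% of all genes described.

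Genes of endothelial and mural cells summed to 124, 108 and 129 FPKM. Of 19 members with at least 1 FPKM, 0 had a range over 4-fold, beside 8.87% of all genes described. RGS5, a pericyte regulator of G protein signalling, led with 33.4, 21.8 and 31.8 FPKM, followed by FLT1, a receptor of VEGF (9.94, 8.53 and 10.8 FPKM), CLDN5, the tight junction claudin of the blood-brain barrier (7.39, 8.78 and 11.3 FPKM), and DCN (decorin). The most variable member was KDR, another VEGF receptor, with 1.55, 5.24 and 2.43 FPKM. Red blood cell genes were low. HBB, beta globin, had 0.84, 0.33 and 5.25 FPKM, and HBM, ALAS2 and SLC4A1 were listed at 0 in all 3 libraries.

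Choroid plexus genes varied as a group. The choroid plexus secretes cerebrospinal fluid and makes transthyretin in large amounts. TTR had 87.3, 1331 and 158 FPKM, and was the third gene of Control-317 by rank. PRLR, the prolactin receptor, had 1.18, 18.5 and 1.33 FPKM. OTX2, a transcription factor, had 1.35, 14.8 and 4.70 FPKM. AQP1, the water channel of the choroid epithelium, had 0.94, 11.5 and 2.13 FPKM. The folate receptor FOLR1 and KL (klotho) were likewise highest in Control-317, at 6.62 and 5.63 FPKM. Of 9 members with at least 1 FPKM, 8 had a range over 4-fold, beside 8.87% of all genes described. Control-317 was the highest library in 8 of the 9, beside 43.5% of all genes described. The most variable was RSPH1, a ciliary protein, with 3.56 and 3.03 FPKM in Control-307 and Control-331 and listed at 0 in Control-317. KL (0.69, 5.63 and 0.54 FPKM) and FOXJ1 (0.85, 3.93 and 0.75 FPKM) passed the mean of 1 FPKM only through Control-317. That Control-317 was highest in these genes was thus fixed by the filter. Without TTR no member reached 20 FPKM in any library. The part of this tissue in the other differences of Control-317 was not tested.

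**Figure D4:**
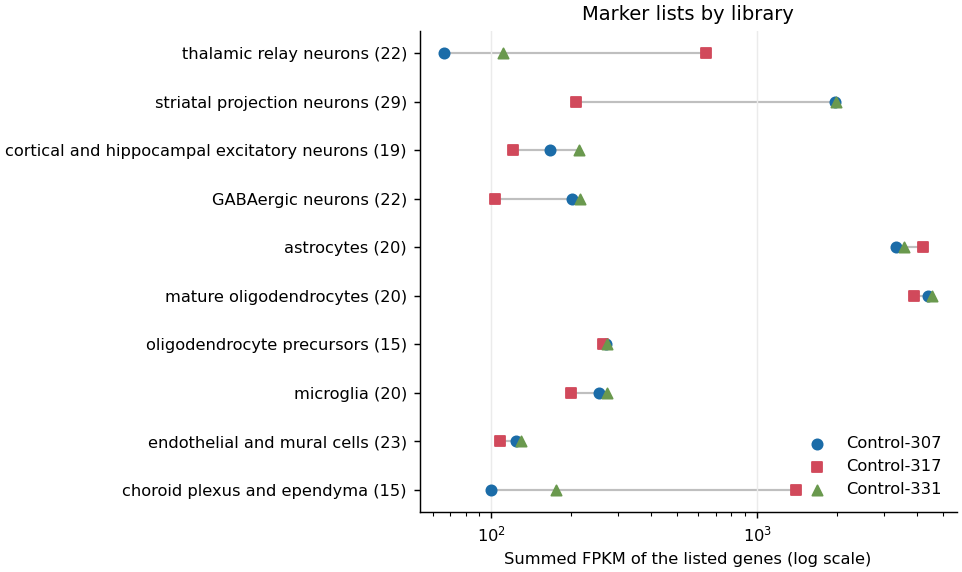
Summed FPKM (logarithmic x axis) of the genes of 10 marker lists, with the number of genes in brackets, in the 3 untreated libraries, 1 point for each library, joined by a grey line from the lowest to the highest. Glial and vascular lists are close together, while thalamic relay, striatal and choroid plexus lists separate Control-317 from the others.

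Genes of thalamic relay neurons had a summed level of 66.2, 641 and 111 FPKM over 22 members. PTPN3 and SLC17A6 led the list. NTNG1, a membrane-bound netrin, had 0.86, 47.6 and 3.92 FPKM. CACNA1G, the T-type calcium channel of thalamic burst firing, had 1.37, 39.8 and 2.89 FPKM. SHOX2, a homeobox gene, had 0.30, 26 and 3.16 FPKM. LEF1, a partner of Wnt signalling, had 2.43, 12.9 and 3.93 FPKM. The order Control-307 below Control-331 below Control-317 held for each of these genes. PRKCD, a kinase also used as a thalamic marker, went the other way with 12.2, 2.40 and 12.4 FPKM. So did TNNT1, a troponin gene, with 15.7, 3.82 and 12.3 FPKM. GBX2, a homeobox gene of the developing thalamus, was low at 0.46, 1.95 and 0.46 FPKM. RGS16 was listed at 0 in all 3 libraries. Of 16 members with at least 1 FPKM, 12 had a range over 4-fold, beside 8.87% of all genes described. Control-317 was the library apart with a higher value in 9 of them and with a lower value in 2, while for SHOX2 it was Control-307. GRID2IP, with 0, 3.03 and 0.07 FPKM, is among the 9 and passed the mean of 1 FPKM only through Control-317. Between Control-307 and Control-331 4 of the 16 differed over 4-fold.

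Genes of striatal projection neurons, the spiny GABAergic neurons that carry dopamine receptors, were high in Control-307 and Control-331 alike. The 29 members summed to 1969 and 1988 FPKM in these libraries and to 208 FPKM in Control-317. ARPP21, a cAMP-regulated phosphoprotein, had 308, 18.1 and 293 FPKM. SYNDIG1L, a membrane protein, had 188, 30.7 and 252 FPKM. PPP1R1B (DARPP-32), which integrates dopamine signals, had 147, 9.66 and 143 FPKM. TAC1, the precursor of substance P, had 112, 5.31 and 129 FPKM. ADORA2A, an adenosine receptor, had 113, 3.53 and 96.7 FPKM. DRD2, the D2 dopamine receptor, had 44.3, 1.41 and 43.5 FPKM. Of 28 members with at least 1 FPKM, 20 had a range over 4-fold, all with Control-317 lower, beside 8.87% of all genes described. Between Control-307 and Control-331 0 of the 28 differed over 4-fold, beside 1.07% of all genes described. CHRM4, a muscarinic receptor with the widest range, was listed at 0 in Control-317 (22.5 and 7.13 FPKM in the others), as were KCNJ4 and GPR6. PDYN, the dynorphin precursor, was low throughout at 2.58, 3.96 and 3.04 FPKM. The part of cell composition in these differences was not tested.

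Defining genes of cortical and hippocampal excitatory neurons were near 0 in every library. SLC17A7 (VGLUT1), their vesicular glutamate transporter, was listed at 0 in Control-307 and Control-317 and had 0.45 FPKM in Control-331, and TBR1, FEZF2, EMX1, NEUROD2 and NEUROD6 stayed below 1 FPKM. BHLHE22 was listed at 0 in all 3. The summed level of 166, 121 and 213 FPKM came mainly from NRGN, a postsynaptic protein that binds calmodulin (81.3, 24.0 and 141 FPKM), and from CAMK2A, a kinase of synaptic plasticity (57.4, 52.0 and 44.1 FPKM). PROX1 and CUX2, both homeobox genes, followed. CUX2 was the most variable, with 1.41, 18.0 and 2.02 FPKM. Of 8 members with at least 1 FPKM, 3 had a range over 4-fold, beside 8.87% of all genes described.

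GABAergic neuron genes summed to 201, 104 and 216 FPKM. GAD2, which makes GABA, had 30.4, 11.99 and 39.0 FPKM. SLC32A1, the vesicular GABA transporter, had 20.3, 12.2 and 26.6 FPKM. GAD1, which makes GABA as well, was listed at 0 in Control-307 and had 0.42 and 2.34 FPKM in Control-317 and Control-331. SCN4B, a sodium channel beta subunit, led with 57.2, 22.4 and 66.1 FPKM. The neuropeptide somatostatin (SST) was even, at 26.9, 23.3 and 22.5 FPKM, whereas neuropeptide Y (NPY) had 32.8, 0.84 and 29.1 FPKM, the largest range of the list. SOX14, a transcription factor of thalamic and midbrain interneurons in mouse, had 0.01, 2.83 and 0.26 FPKM. PVALB, CCK and TH were listed at 0 in all 3 libraries. Of 13 members with at least 1 FPKM, 5 had a range over 4-fold, beside 8.87% of all genes described. SOX14 is among the 5 and passed the mean of 1 FPKM only through Control-317.

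Ribosomal protein genes were lower in Control-317. Symbols that begin with RPL or RPS, 93 taken by their name pattern, made up 8.31%, 4.51% and 8.86% of the summed FPKM. The pattern also admits names such as those of the ribosomal S6 kinases (RPS6K), which are not ribosomal proteins. RPL41, which led, had 726, 349 and 901 FPKM. RPS20 had 498, 277 and 622 FPKM and RPS2 had 473, 330.5 and 557 FPKM. RPS4X went against this, with 231, 327 and 277 FPKM. Control-317 was the lowest library for 74 of 90 symbols of this pattern with at least 1 FPKM, against 44.0% of all genes described. Of the 90, 17 had a range over 4-fold, beside 8.87% of all genes described. Many ribosomal proteins have near-identical copies, between which the authors' estimates could divide reads. The 39 genes of the ribosomal list, which holds ribosomal proteins only, summed to 9937, 5890 and 11640 FPKM. Control-317 was lowest for 33 of the 39, and 7 had a range over 4-fold. Genes were also divided into 5 classes of transcript length, taken from the counts behind 1 FPKM. The median log2 difference of Control-317 from the mean of the others was -0.31 in the shortest class and 0.02, 0.05, 0.07 and 0.15 in the classes of increasing length. The part of length in the ribosomal difference was not tested.

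The 24 genes of oxidative phosphorylation in the table summed to 2499, 2218 and 2737 FPKM. Of 23 with at least 1 FPKM 0 had a range over 4-fold, beside 8.87% of all genes, and their median range of 1.52-fold was close to the 1.59-fold of all genes. The ATP synthase subunits ATP5B and ATP5A1 led with 262, 396 and 293 FPKM and 260, 391 and 271 FPKM, followed by ATP5O (235, 241 and 250 FPKM) and NDUFA4 (261, 177 and 269 FPKM). ATP5L, a small subunit of the same enzyme, was the most variable, with 70.1, 22.1 and 79.2 FPKM. The other 18 genes of this list have no symbol of that name in the table and are not described.

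Cytoskeletal genes of neurons summed to 4442, 6490 and 5084 FPKM and 23 of 31 were highest in Control-317, beside 43.5% of all genes described. TUBB3, the neuronal beta tubulin, had 52.6, 322 and 71.5 FPKM. TUBB2A had 53.6, 308 and 103 FPKM. The neurofilament genes NEFL, NEFM and NEFH, which set the calibre of large axons, had 118, 297 and 103 FPKM, 66.5, 153 and 58.6 FPKM, and 3.03, 57.8 and 5.69 FPKM. NEFH had the largest range of the list, 18.5-fold. ACTG1, gamma actin, had 319, 565 and 366 FPKM. Against this direction, KIF5A, a kinesin motor of axons, had 288, 72.1 and 242 FPKM and TMSB10, a short actin-binding protein, had 95.9, 13.7 and 101.8 FPKM. MAP2, a protein of dendritic microtubules, was even at 112, 102.3 and 105 FPKM. In all, 5 of 31 had a range over 4-fold, beside 8.87% of all genes described.

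Genes of synaptic vesicles and release summed to 1310, 2558 and 1460 FPKM, and 25 of 31 members with at least 1 FPKM were highest in Control-317, beside 43.5% of all genes described. VAMP2, the vesicle SNARE protein, had 203, 292 and 203 FPKM. SYT11, a synaptotagmin, had 158, 191 and 173 FPKM. NSF, which takes SNARE complexes apart, had 90.3, 188 and 106 FPKM. SYT1, the calcium sensor of release, had 82.4, 199 and 86.1 FPKM. SYP (synaptophysin) had 49.3, 240 and 70.8 FPKM. CPLX2, a complexin that controls fusion, was lowest in Control-317, with 30.9, 6.73 and 23.1 FPKM. SLC17A6 had the largest range of the list, and 7 of 31 had a range over 4-fold, beside 8.87% of all genes described.

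Glutamate receptor subunits summed to 334, 405 and 349 FPKM. GRIN1, the obligatory NMDA receptor subunit, was highest, with 51.0, 92.8 and 60.2 FPKM. It was followed by GRM3, a metabotropic receptor of glia and neurons (65.8, 29.4 and 54.8 FPKM), and by the AMPA receptor subunits GRIA2 (49.2, 33.1 and 47.0 FPKM) and GRIA1 (27.2, 13.3 and 28.5 FPKM). The ranges of these neighbours overlapped, except those of GRIA2 and GRIA1. GRIA4, another AMPA subunit, was highest in Control-317, with 9.31, 41.6 and 13.7 FPKM. The metabotropic receptor GRM4 was highest there too, with 3.27, 20.2 and 5.07 FPKM. GRIN2D, a slow NMDA receptor subunit, had the largest range, with 0.33, 5.07 and 1.00 FPKM. Of 23 subunits 7 had a range over 4-fold, beside 8.87% of all genes described, and 6 of them were higher in Control-317. GRIN2D is among the 6 and passed the mean of 1 FPKM only through Control-317.

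GABA receptor genes summed to 271, 567 and 306.5 FPKM. The subunits of the GABA-B receptor, GABBR1 and GABBR2, had 58.4, 91.1 and 52.1 FPKM and 8.01, 126 and 17.0 FPKM. The beta subunit GABRB2 had 20.2, 60.3 and 32.5 FPKM. GABRA6, the subunit of cerebellar granule cells, stayed below 0.1 FPKM in each library. Of 14 members with at least 1 FPKM, 3 had a range over 4-fold, beside 8.87% of all genes described.

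Calcium-binding proteins and their partners summed to 3527, 2224 and 3579 FPKM, and members beyond the calmodulins showed both directions. PPP3CA, the catalytic subunit of calcineurin, had 222, 55.7 and 180 FPKM. VSNL1, a neuronal calcium sensor, had 26.5, 105 and 48.1 FPKM. CAMK4, a nuclear calmodulin kinase, had 62.7, 10 and 58.7 FPKM, whereas HPCAL1, a relative of hippocalcin and the most variable of the list, had 1.60, 10.97 and 1.89 FPKM. Of 20 members with at least 1 FPKM, 5 had a range over 4-fold, beside 8.87% of all genes described.

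Immediate early genes, which neurons switch on within minutes of activity, were low and summed to 129.5, 112 and 155 FPKM. FOS, FOSB and NPAS4 stayed below 1 FPKM in every library. SGK1, a stress-regulated kinase, led with 30.8, 21.3 and 33.9 FPKM, followed by JUND (10.6, 18.4 and 11.9 FPKM), EGR1 (11.6, 4.04 and 13.4 FPKM) and DUSP1 (5.70, 12.99 and 8.59 FPKM). EGR3 was the most variable, with 8.72, 0.88 and 6.54 FPKM. ARC, a gene of synaptic scaling, had 1.33, 2.48 and 9.56 FPKM and differed over 4-fold between Control-307 and Control-331. Of 18 members with at least 1 FPKM, 4 had a range over 4-fold, beside 8.87% of all genes described.

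Stress and heat shock genes summed to 1666, 2262 and 1934 FPKM. HSPA8 had 373, 858 and 550 FPKM. HSP90AA1 had 469, 393 and 498 FPKM. HSP90AB1 had 262, 439 and 265 FPKM and HSP90B1, of the endoplasmic reticulum, had 123, 76.2 and 129 FPKM. The inducible HSPA6 stayed below 0.5 FPKM. HSPB1, a small heat shock protein (13.9, 68.1 and 19.1 FPKM), and CDKN1A, the cell cycle inhibitor p21 (0.70, 11.01 and 0.81 FPKM), were the 2 of 18 members with a range over 4-fold, both highest in Control-317. The share over 4-fold of all genes described was 8.87%. CDKN1A passed the mean of 1 FPKM only through Control-317.

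The filter on mean FPKM still included Control-317 here, so the genes described are the same as above. With Control-317 left out of the comparison only, 1.07% of all genes described differed over 4-fold. Among list members with at least 1 FPKM this held for 4 of 16 relay neuron genes (SLC17A6, also a vesicle gene, SHOX2, NTNG1 and PTPN3), for 2 of 39 ribosomal protein genes (RPL8 and RPL37), for ARC and for HBB, and for 0 members of the other lists. The median difference in the relay list was then 1.64-fold, beside 1.15-fold over all genes.

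Between Control-307 and Control-331 alone, the largest differences were these, found after the data were seen. Apart from LOC107128652, none of the 10 largest at this level passed 4-fold. Among genes with a mean of at least 20 FPKM in Control-307 and Control-331, ITM2C, an integral membrane protein, had 42.4 and 13.9 FPKM. ARF4, a small GTPase of vesicle traffic, had 45.1 and 18.9 FPKM. DKK3, a secreted protein related to Wnt inhibitors, had 21.0 and 53.8 FPKM. LGALS1 (galectin 1) had 13.3 and 33.6 FPKM. TMEM219 had 11.9 and 29.4 FPKM. INA, the filament protein internexin, had 19.5 and 47.1 FPKM. DKK3 and INA reached 229 and 104 FPKM in Control-317. The others of the 10 largest were TIMM8B, LOC107128652 and 2 loci described as ribosomal proteins.

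Transcript variants were described for the 8227 genes with at least 1 FPKM and 2 or more annotated RefSeq transcripts. Another 3867 genes had 1 transcript only. The annotation gave a median of 4 variants. The leading variant, the one with the highest FPKM, was the same in all 3 libraries for 5742 genes (69.8%). It was the same in Control-307 and Control-331 for 83.3%, in Control-307 and Control-317 for 75.7% and in Control-317 and Control-331 for 77.5%. It held a median share of 72.3%, 74.3% and 72.5% of the FPKM of the gene. In 1345 genes (16.3%) 1 variant held at least 90% in every library, and in 668 genes no variant reached 50% in any.

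Agreement and dominance were lower with a larger number of annotated variants. With 2 variants the leading one was shared by all 3 libraries in 84.6% of 2352 genes, with 3 to 5 in 70.5%, with 6 to 10 in 57.1% and with 11 or more in 48.2% of 714. The median share in Control-307 went from 91.8% with 2 variants to 44.5% with 11 or more. The leading variant was the same in all 3 libraries for 74.9% of genes of at least 10 FPKM and for 86.9% of 160 genes of at least 100 FPKM. Genes with a range over 4-fold shared the leading variant in 60.3%, and those with a range within 2-fold in 72.0%. Control-307 and Control-331 alone shared it in 88.2% of genes of at least 10 FPKM and in 94.4% of those of at least 100 FPKM. For the genes over 4-fold and within 2-fold these libraries shared it in 79.2% and 84.5%. Among genes that shared it in all 3 libraries and had an annotated variant X1, X1 led in 45.1%. X1 made up 22.4% of their annotated variants. All 8227 genes with 2 or more transcripts had 42025 annotated variants. Of these variants, 20665 were above 0 in every library, 9572 were listed at 0 in every library and 11788 were listed at 0 in some.

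Among highly expressed genes with 3 or more variants and a shared leading one, 4 of the 8 described gave over 90% to a single form in every library. For PPIA the RefSeq transcript with a curated accession held 98.4%, 99.2% and 98.2% of the gene, and for CNP variant X1 held 96.0%, 95.9% and 95.6%. The ribosomal protein genes RPS15A and RPS21 were led by 1 variant with 90.6% to 96.7%. Ubiquitin B (UBB) was led by X1 with 79.3% to 87.5%, CLU by X1 with 83.5% to 91.7%, and YWHAE, a 14-3-3 adaptor protein, by X1 with 63.4% to 73.6%. NDRG2, with 20 annotated variants, was divided. Its variants X11 and X12 held 37.9% and 37.6% in Control-307, 34.6% and 32.1% in Control-317, and 42.6% and 34.0% in Control-331, although the gene total differed by only 1.02-fold.

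The largest differences in variant shares mostly set Control-317 against the other libraries. For CAMK2A, variant X2 held 93.0%, 1.31% and 88.5%, and X1 held 96.6% in Control-317. GMNN, an inhibitor of DNA replication licensing, used X3 in Control-307 and Control-331 (86.5% and 78.0%) and X2 in Control-317 (97.5%), with 10.1 to 10.9 FPKM in each library. GDPD1, a lipid phosphodiesterase, gave 100% to X3 in Control-307 and Control-331 and 93.6% to X2 in Control-317. FERMT2, a kindlin that activates integrins, was led by X6 with 96.6% and 91.9% in Control-307 and Control-331 and by X5 with 52.3% in Control-317. For GNB1, a G protein beta subunit, X2 stood at 15.9, 9.45 and 12.5 FPKM, and X1 was listed at 0 in Control-307 and Control-331 and had 104 FPKM in Control-317. NSDHL, an enzyme of cholesterol synthesis, was led by X2 in Control-307 and Control-331 and by X1 in Control-317.

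Some of these differences also involved Control-307 and Control-331. MME, the membrane protease neprilysin, was led by X7 in Control-307 (52.1%) and by X5 in Control-331 (77.6%), with only 1.06 FPKM in Control-317. INSIG2, a regulator of sterol synthesis, gave 90.1% to X1 in Control-307 and 10.8% in Control-331. Exact 0 values of single variants carry the caution given for genes, since the authors' estimates divide reads among variants that share most of their exons.

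**Figure D5:**
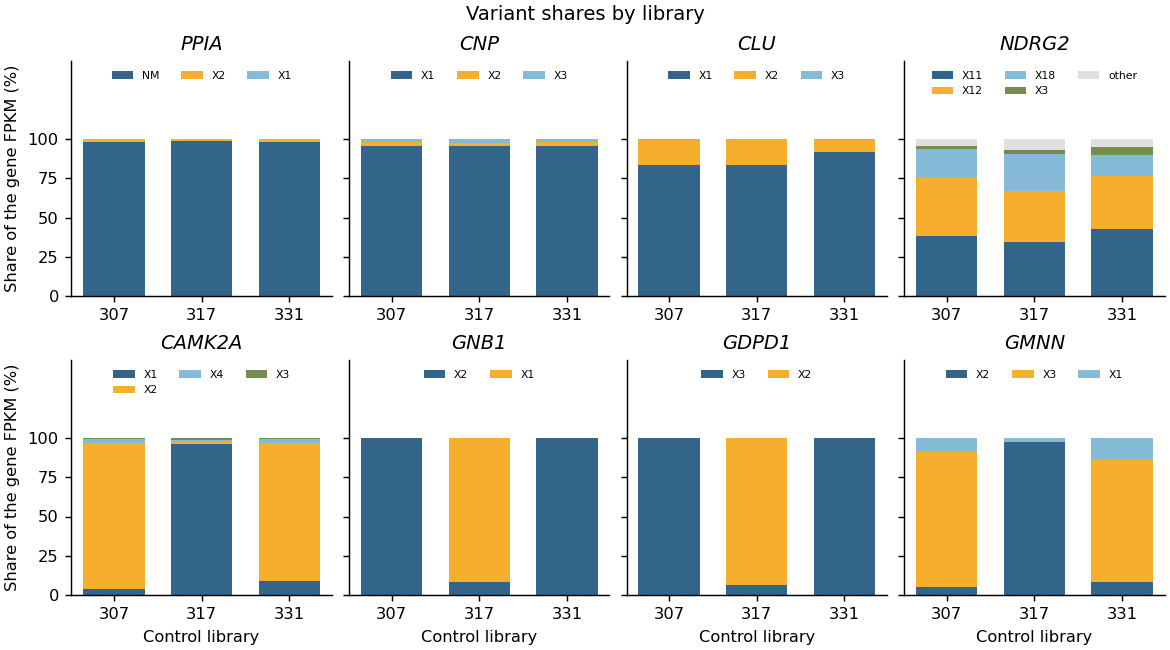
Share in percent of the FPKM of a gene held by its leading variants (coloured, named by RefSeq variant number, NM for a curated accession) and by all others (grey) in each of the 3 untreated libraries. The upper row shows 4 highly expressed genes with the same leading variant in every library, and the lower row 4 genes in which Control-317 has another one, such as CAMK2A with X1 at 96.6%.

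Some genes described above also differed in their leading variant, and these were picked after their values were seen. DRD1 was led by X1 in Control-307 and Control-331 (65.2% and 78.2%) and by X2 in Control-317 (55.0%). In Control-317 this rested on 3.46 FPKM of X2 against 2.83 FPKM of X1. TCF7L2, with 28 annotated variants, was led by X21 in Control-307, at only 1.18 FPKM, and by X16 in the others. MBP and GRIA2 kept 1 leading variant in all 3 libraries, with shares of 45.2% to 54.2% and of 49.2% to 82.0%.

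By list, the leading variant was shared in 14 of 15 cytoskeletal genes, 12 of 13 ribosomal protein genes, 17 of 20 vesicle genes, 11 of 13 myelin genes and 10 of 12 astrocyte genes with 2 or more variants. It was shared in 12 of 21 glutamate receptor subunits, 10 of 17 striatal genes, 5 of 10 relay neuron genes and 1 of 6 genes of cortical excitatory neurons, beside the 69.8% over all genes. The counts by list were made over all 3 libraries and were not repeated without Control-317.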

How the data were processed

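RNA was extracted from the tissue with Trizol, enriched for mRNA with oligo-dT beads and sequenced. The authors filtered reads with fastp 0.18.0 and quantified RefSeq transcripts of Macaca_fascicularis_5.0 with StringTie 1.3.4. The paper names HISAT2 as aligner, and the submitters' processing notes list Bowtie2 2.2.8. The authors deposited estimated counts and FPKM for 62655 transcripts, and FPKM was proportional to the counts within 0.911% over 7469 transcripts. Both were summed per symbol. Of the symbols, 12 had been turned into dates by a spreadsheet, each of 1 gene. No coordinates or sequences are given.

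Genes with a mean of at least 1 FPKM were described on the scale log2(FPKM + 0.1). A gene could pass this mean through 1 library alone, which was then the highest by the filter itself. The biological coefficient of variation came from edgeR 4.0.16 (R 4.3.3) on rounded estimated counts after TMM normalization, and each computation was tested on simulated data. Named genes were the 25 highest, the 10 with the largest and smallest ranges at 20 FPKM or more (5 at 100 FPKM or more), the 4 highest, the most variable and the undetected members of 20 lists, marker genes of cell types, and 8 genes each with shared or differing leading variants. The 10 genes and the variants of 5 genes that differed most between Control-307 and Control-331 were added after the data were seen, as were the variants of 8 genes picked by value. Members and lists were chosen with earlier results of these data known. Alternatives were other scalings, pseudocounts, filters, count-based variant shares and leaving out each library. Some genes that these rules pick are not reported here.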

Additional observations from a re-analysis of the deposited data

How the results depend on the processing

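Of 48 recomputed values, 36 were classed as the same and 12 as moved. Counts were the same if within 1.5 times the main count. Medians and the FPKM share of the highest genes were the same if within the spread between libraries. The share of genes over 4-fold with Control-317 apart was judged by neither rule but by a narrower limit. Its values classed as moved are given below beside the main share of 84.1%. Leaving out each library in turn gave 109 to 918 genes with a range over 4-fold in place of 1073, and a median range of 0.19 to 0.56 in place of 0.67 on the log2 scale. The low ends are without Control-317, with genes filtered on the mean of the libraries kept. The 129 genes given above were filtered on the mean of all 3 libraries. The count over 4-fold was 1860 with FPKM rescaled to TPM, 618 with a pseudocount of 1 FPKM, 1853 for all genes above 0 and 3.3e+02 for genes of at least 10 FPKM. Control-317 was apart in 71.2%, 88.7%, 69.8% and 96.7% of them, against 84.1%. Rescaling also lowers the threshold of 1 FPKM and the pseudocount, and the filters change how many genes are described. A leading variant common to all libraries was found for 2563 genes of at least 10 FPKM in place of 5742, because fewer were compared. The median share of the leading variant was 68.8% with minor variants under 5% left out, against 73.1%. Genes near 1 FPKM rest on the fewest counts. No paired analysis was possible because the 3 libraries form 1 group of separate animals.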
